A study of Homo sapiens with 9 samples.

Results

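The 10 genes described here encode amino acid transporters of the plasma membrane: SLC7A11, SLC7A5, SLC3A2, SLC7A1, SLC38A1, SLC38A2, SLC1A4, SLC1A5, SLC6A9 and SLC7A6. They were taken by gene symbol from a deposited expression table, which held 1 row for each of them among 23621 gene rows. The table covers MOLT4, a human cell line from a T-cell acute lymphoblastic leukemia (T-ALL), after 6 h in 3 groups of 3 libraries. Cells received MI-389, a compound known by its code name, or the kinase inhibitor sunitinib, or 0.1% DMSO as vehicle. The series is about phthalimide degraders and names GSPT1, which helps ribosomes stop at stop codons, as a protein they hit beside their intended targets. Transporter messenger RNA was compared in 3 ways: each compound with vehicle, and the compounds with each other.

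For the treated libraries, titles and source field disagree. The source field names sunitinib at 1 µM for the libraries titled MI-389, and MI-389 at 0.1 µM for the libraries titled sunitinib. Titles, the barcode list of the protocol and the column names go together, so groups are called as titled; if the source field is right, each statement on either compound belongs to the other. Doses were not matched, so the treated groups differ in compound and dose together. Nothing in the labels ties the replicates to separate cultures, and the p-values therefore reflect a spread between libraries that may be technical. In RNA of a whole culture, a change in the share of cells that express a gene and a change in RNA per cell cannot be told apart.

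Amino acid transporters set which amino acids a cell can take up, and most of them exchange one amino acid for another or couple uptake to sodium. SLC3A2, also known as CD98 or the 4F2 heavy chain, is a glycoprotein that carries several SLC7 light chains to the plasma membrane, among them SLC7A5, SLC7A6 and SLC7A11; the light chain is the transporting subunit. Many transporter genes are known targets of ATF4, the transcription factor whose translation rises when eIF2alpha is phosphorylated under amino acid shortage or other stress. ATF4 pairs with C/EBP factors on composite sites whose core is often written TGATGNAA, where N is any base. SLC7A5 and SLC1A5 are also known MYC targets, and MYC binds the E-box CACGTG.

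Promoter windows from RefSeq (GRCh38.p14; 250 bases before and 50 after a gene's start) were searched on both strands for these letters; the expression table was made on another build. The windows matched 9 members with 15 annotated starts; SLC7A11 was the member with none. TGATGNAA stood in 5 of the 15 windows, against 3.62% of all 35116 windows, and its narrower form TGATGCAA, every instance of which also counts for the wider one, in 2 of 15, against 0.866%. A match is a description of letters and not a shown binding site. The 5 stretches are printed because they belong to genes whose transcripts differed by very different amounts in the libraries titled MI-389; capitals mark the match, read on the strand of the gene.
SLC1A5, the third of 3 starts, match 97 bases before the start (chr19:46784848-46784967, minus strand): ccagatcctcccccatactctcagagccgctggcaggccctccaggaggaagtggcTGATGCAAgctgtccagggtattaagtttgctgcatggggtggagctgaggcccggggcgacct
SLC1A4, the second of 2 starts, reverse complement 7 bases before the start (chr2:64989381-64989410, plus strand): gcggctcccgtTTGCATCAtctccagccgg
SLC7A1, its single start, match 7 bases after the start (chr13:29595663-29595692, minus strand): gggcgcactgcTGATGAAAcctggcgccgg
SLC38A1, the first of 2 starts, match 4 bases before the start (chr12:46266502-46266531, minus strand): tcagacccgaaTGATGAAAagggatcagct
SLC3A2, the first of 3 starts, reverse complement 37 bases after the start (chr11:62881725-62881748, plus strand): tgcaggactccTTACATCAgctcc

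CACGTG stood in 2 of the 15 windows, against 7.26% of all windows. The 2 windows belong to SLC7A5 and SLC1A5. No other member with a window had this match, among them SLC3A2 and SLC6A9, which also rose in the libraries titled MI-389, as described below. A link between these letters and the rises was not tested.
SLC7A5, its single start, match 130 bases before the start (chr16:87869576-87869693, minus strand): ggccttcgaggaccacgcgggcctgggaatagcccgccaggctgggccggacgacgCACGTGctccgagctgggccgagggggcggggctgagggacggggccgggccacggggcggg
SLC1A5, the second of 3 starts, match 50 bases before the start (chr19:46787294-46787399, minus strand): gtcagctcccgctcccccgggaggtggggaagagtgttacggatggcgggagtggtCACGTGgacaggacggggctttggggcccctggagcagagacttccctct
No match to either motif was found in the windows of SLC6A9, SLC38A2 and SLC7A6, which says only that these letters are not in these windows.

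The values were FPKM, a unit that scales read fragments to transcript length and library size. They were used as deposited by the authors, under a name that marks them as normalized. A mean of 1 FPKM or more across all 9 libraries was required for testing and was met by 12301 genes. Values of log2(FPKM + 1) were tested two-sided with limma, with Benjamini-Hochberg adjustment over all 12301; "rose" and "fell" below mean an adjusted p under 0.05. All 10 transporters passed the filter, but SLC6A9 did so through the libraries titled MI-389 alone, since its mean over the other 6 was 0.986 FPKM. The table holds no read counts. From the step height of rows near the floor, depth was estimated relative to DMSO. The estimate was about 1.39 times in libraries titled MI-389 and 1.34 times in those titled sunitinib (79 and 94 rows). Any scaling of libraries by the authors enters this estimate and cannot be told apart from depth. All 15 markers of immature T cells and T-ALL averaged at least 1 FPKM in every group, summing to 5071 to 5369 FPKM in libraries titled MI-389, 5839 to 6133 in those titled sunitinib and 5393 to 6656 in DMSO. CD4 was the lowest of them, at 1.79, 3.74 and 2.69 FPKM in the same order. Of the lists for other cell types, 2 of 7 B-cell markers, 0 of 8 myeloid markers and 1 of 9 epithelial or fibroblast markers reached 1 FPKM. The B-cell genes were CD79A, at 8.50, 6.66 and 9.07 FPKM, and CD79B, at 2.24, 2.02 and 2.33 FPKM, in the same order of groups, CD79A being above CD4; MS4A1 and PAX5 lay at the floor of about 0.1 FPKM. Their part in the results was not tested.

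In the libraries titled MI-389, 8 of the 10 transporters rose against DMSO, SLC7A6 fell and SLC38A2 did not pass the test. The rises ran from 1.16-fold for SLC38A1 to 16.6-fold for SLC7A11 and 27.0-fold for SLC6A9, as ratios of mean FPKM. Over all genes, 56.7% were called in this comparison: 28.5% rose and 28.3% fell, 50.2% of the calls being higher as deposited and 39.4% with each library centred on its median. The log2(FPKM + 1) difference reached 1 for 5 transporters, all of them higher, against 2.39% of all genes. The median difference was 1.21 over the transporters and −0.002 over all genes on that scale. The MI-389-titled and DMSO libraries did not overlap for 9 of the 10, against 60.2% of all genes (30.5% higher and 29.7% lower). SLC6A9, which passed the filter through the libraries titled MI-389 alone, is among the 8, the 5 and the 9 counted here. The 10 genes were chosen with earlier results of these data known, which limits what these counts can show.

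**Figure D1:**
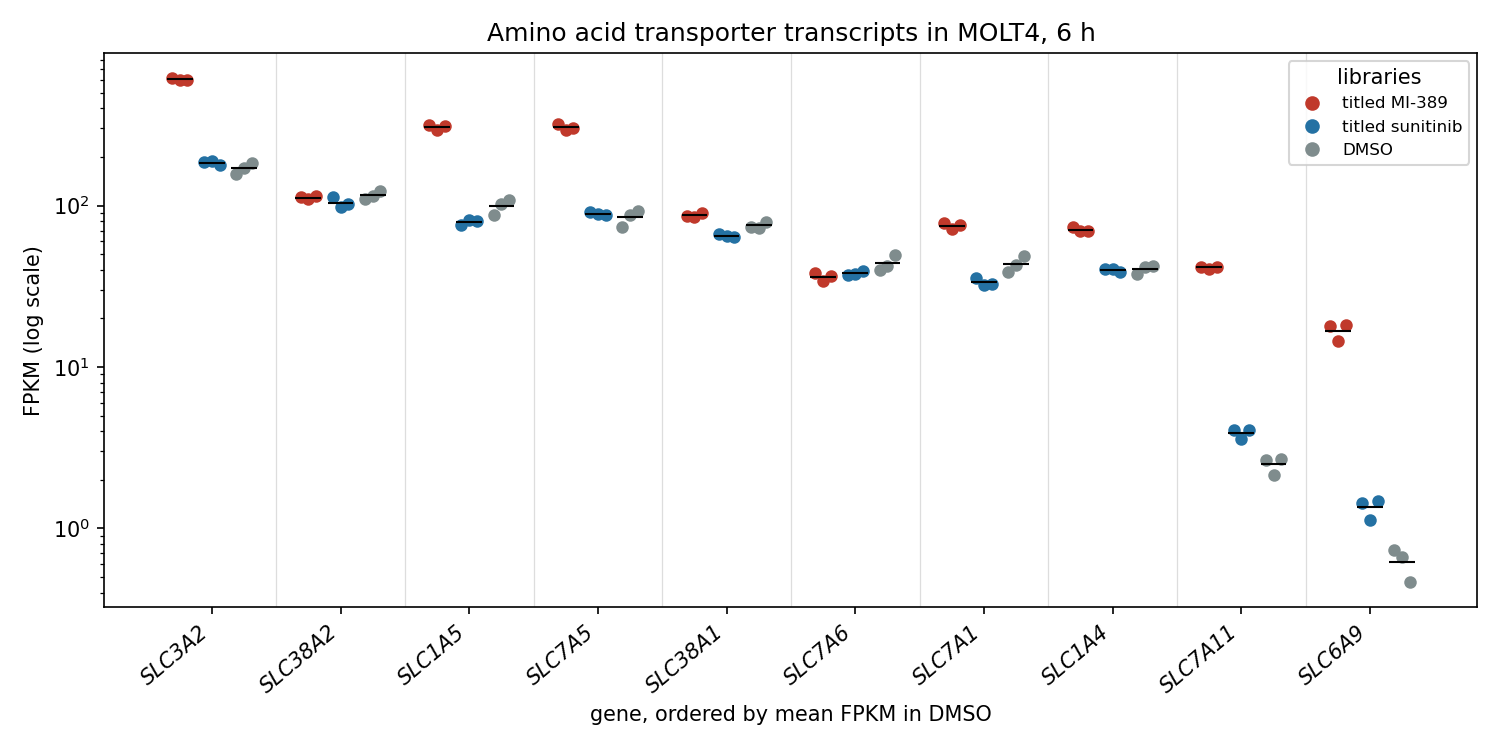
FPKM of each transporter gene in each library on a log axis; points are the 3 libraries of a group, black lines the group mean, and genes run from the highest to the lowest mean in DMSO. SLC7A11 and SLC6A9 stand far above DMSO in the libraries titled MI-389 (41.4 against 2.50 and 16.8 against 0.621 FPKM), while SLC38A2 and SLC7A6 lie close together in all groups.

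SLC7A11, the light chain of the cystine and glutamate exchanger that supplies cysteine for glutathione, had 41.9, 40.7 and 41.6 FPKM in the libraries titled MI-389, 4.06, 3.56 and 4.06 FPKM in those titled sunitinib, and 2.64, 2.15 and 2.70 FPKM in DMSO. The 3 groups did not overlap, with the MI-389-titled libraries far above both others. On the log2(FPKM + 1) scale its difference from DMSO was 3.60 ± 0.079 (SE; limma, adjusted p = 3.44e-09) and ranked 31st from the top of the 12301 genes. Its antisense neighbour SLC7A11-AS1, which overlaps it, stayed between 0.106 and 0.292 FPKM in every library and was not tested.

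SLC3A2, the shared heavy chain, was the most abundant of the 10 transcripts in every group. It had 614, 597 and 602 FPKM in the libraries titled MI-389, 185, 188 and 179 FPKM in those titled sunitinib, and 156, 171 and 183 FPKM in DMSO. The MI-389-titled libraries lay far above the rest, and the other 2 groups overlapped. Against DMSO SLC3A2 rose 3.55-fold in the libraries titled MI-389 (log2 difference 1.83 ± 0.061 SE; limma, adjusted p = 4.85e-08). SNHG1, its neighbour and a host of small nucleolar RNAs, averaged 880 ± 29.5 FPKM in the libraries titled MI-389, against 514 ± 51.6 in DMSO (SD, n = 3), 1.71-fold higher.

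SLC7A5, or LAT1, exchanges large neutral amino acids such as leucine for intracellular glutamine. It had 320, 295 and 303 FPKM in the libraries titled MI-389, 91.3, 88.4 and 87.3 FPKM in those titled sunitinib, and 73.7, 87.2 and 93.1 FPKM in DMSO. It rose 3.61-fold against DMSO in the libraries titled MI-389 (1.85 ± 0.080 SE on the log2 scale; limma, adjusted p = 2.11e-07), again with no overlap. The gene has near-identical pseudogene copies, so the division of reads among them is uncertain; SLC7A5P1 averaged 23.0 against 7.09 FPKM and SLC7A5P2 10.4 against 3.02 FPKM in the same comparison, both higher by the same test. Over the 6 treated libraries SLC7A5 and SLC3A2 had the most alike profiles of any pair of transporters, with a root mean square distance of 0.044 between their log2 differences from DMSO.

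SLC7A6, or y+LAT2, exchanges cationic for neutral amino acids and also pairs with SLC3A2, but it moved the other way. It had 37.9, 34.1 and 36.6 FPKM in the libraries titled MI-389, 37.1, 37.8 and 39.2 FPKM in those titled sunitinib, and 39.99, 42.4 and 49.2 FPKM in DMSO. Both treated groups lay below DMSO and overlapped with each other. The fall in the libraries titled MI-389 was to 36.2 ± 1.92 FPKM, against 43.9 ± 4.78 in DMSO (SD, n = 3), a log2 difference of −0.27 (limma, adjusted p = 0.0140). Without MI-389-titled replicate 2 the difference was −0.22 and did not pass (adjusted p = 0.0535). SLC7A6OS, a protein-coding gene that overlaps it on the opposite strand, rose 1.32-fold there; since the kit is not strand-specific, reads from overlapping genes cannot be told apart.

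Per length, the light chains that pair with SLC3A2 summed to 384 ± 14.7 FPKM in the libraries titled MI-389, 132 ± 1.498 in those titled sunitinib and 132 ± 14.6 in DMSO (SD, n = 3 each). SLC7A5 made up 79.6%, 67.6% and 64.2% of that sum, SLC7A6 9.42%, 28.9% and 33.3%, and SLC7A11 10.8%, 2.96% and 1.91%, in the same order of groups. SLC7A11 thus stood above SLC7A6 in the libraries titled MI-389 and below it in the other groups. The ratio of summed light chains to SLC3A2 was 0.651, 0.621 and 0.635 in the MI-389-titled libraries, 0.722, 0.692 and 0.731 in the sunitinib-titled libraries, and 0.748, 0.776 and 0.798 in DMSO. No pair of groups overlapped, and each of the 3 exact permutation tests gave p = 0.1, two-sided (0.1 adjusted over the 3), the smallest that 3 against 3 libraries allow. Since the uncertain SLC7A5 row weighs most, the ratio of MI-389-titled to DMSO libraries, 0.821 with it, was 0.468 without it.

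**Figure D2:**
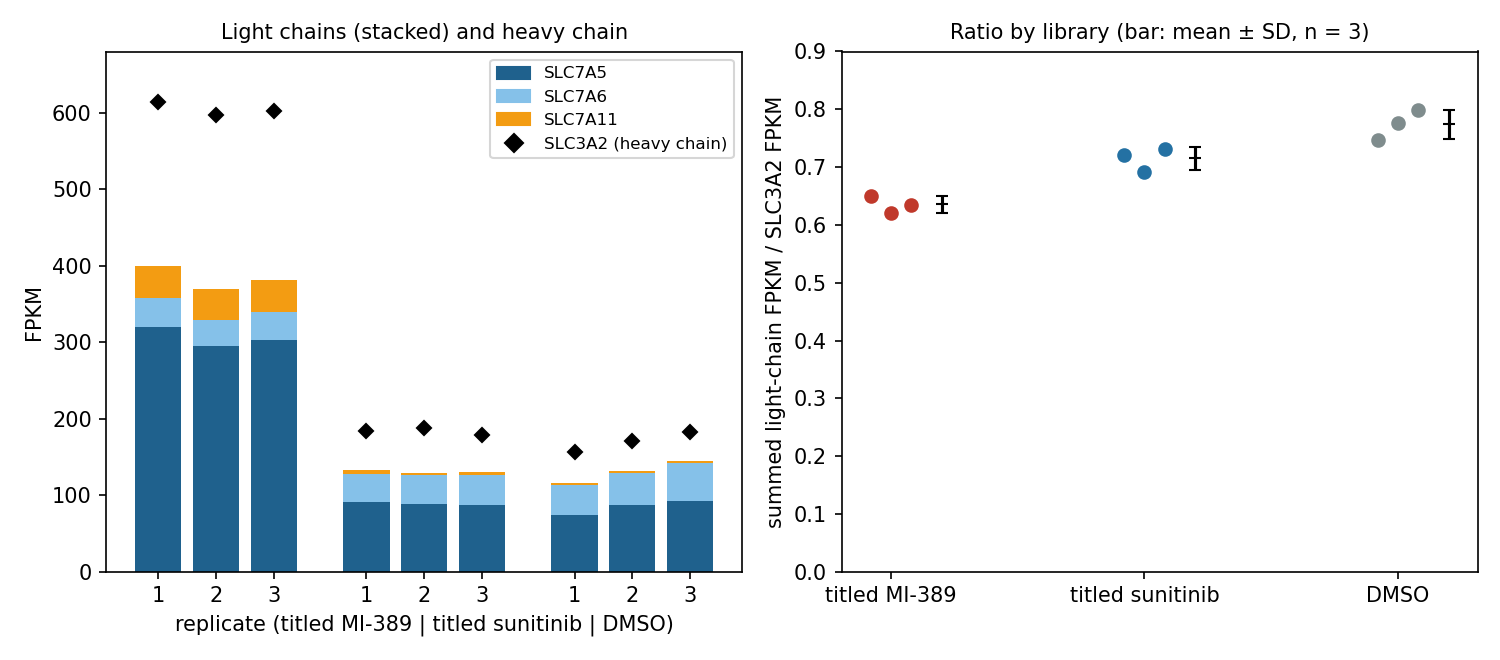
Left, FPKM of the SLC3A2 heavy chain (diamonds) and of 3 light chains stacked as bars in each library; right, the summed FPKM of all 6 light-chain genes in the table over that of SLC3A2, by library with mean and SD. The heavy chain rises somewhat more than the light-chain sum in the libraries titled MI-389, whose ratios sit between 0.621 and 0.651, below the DMSO range of 0.748 to 0.798.

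SLC1A5, or ASCT2, a sodium-dependent exchanger of neutral amino acids and a main route for glutamine, had 317, 294 and 310 FPKM in the libraries titled MI-389, 76.1, 81.1 and 80.4 FPKM in those titled sunitinib, and 86.8, 103 and 108 FPKM in DMSO. The 3 groups did not overlap: the MI-389-titled libraries were highest and the sunitinib-titled ones lowest. Against DMSO SLC1A5 rose 3.10-fold in the libraries titled MI-389 (1.63 ± 0.078 SE on the log2 scale; limma, adjusted p = 4.34e-07).

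SLC1A4, or ASCT1, the relative of SLC1A5 that carries serine, alanine and cysteine, was lower and moved less. It had 73.8, 69.0 and 69.6 FPKM in the libraries titled MI-389, 40.3, 40.4 and 38.9 FPKM in those titled sunitinib, and 37.8, 41.4 and 42.5 FPKM in DMSO. Its 1.75-fold rise in the libraries titled MI-389 was free of overlap (0.79 ± 0.056 SE; limma, adjusted p = 4.00e-06). The ratio of SLC1A5 to SLC1A4 was 4.34 ± 0.110 in the libraries titled MI-389, 1.99 ± 0.091 in those titled sunitinib and 2.44 ± 0.129 in DMSO (SD, n = 3 each).

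SLC7A1, or CAT1, the main carrier of arginine and lysine, had 78.1, 71.0 and 75.8 FPKM in the libraries titled MI-389, 35.3, 32.2 and 32.8 FPKM in those titled sunitinib, and 38.9, 42.8 and 48.9 FPKM in DMSO. As with SLC1A5, the MI-389-titled libraries lay above DMSO and the sunitinib-titled ones below it, with no overlap. The rise in the libraries titled MI-389 was 1.72-fold (0.78 ± 0.081 SE; limma, adjusted p = 3.83e-05).

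SLC6A9, or GlyT1, a sodium- and chloride-coupled glycine transporter, had 17.9, 14.4 and 18.1 FPKM in the libraries titled MI-389, 1.44, 1.13 and 1.48 FPKM in those titled sunitinib, and 0.733, 0.665 and 0.466 FPKM in DMSO. No groups overlapped, and SLC6A9 stayed the least abundant of the 10 throughout. Its log2 difference between the MI-389-titled and DMSO libraries was 3.45 ± 0.119 SE (limma, adjusted p = 5.06e-08) and ranked 35th of 12301. The rank is limited by the filter, which SLC6A9 passed through the libraries titled MI-389 alone. With no filter the adjusted p was 5.31e-06 (limma). The DMSO values lay within 8-fold of the floor of the table, near 0.1 FPKM, so the log2(FPKM + 1) value understates the ratio of means; with a pseudocount of 0.1 it was 4.56. CCDC24, a gene overlapping it on the opposite strand, averaged 2.14 ± 0.293 against 1.41 ± 0.441 FPKM (SD, n = 3), a difference of 0.39 that did not pass the test (limma, adjusted p = 0.0676).

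The sodium-coupled carriers SLC38A1 and SLC38A2, also called SNAT1 and SNAT2, take up glutamine, alanine and other small neutral amino acids. SLC38A1 had 86.7, 84.6 and 89.5 FPKM in the libraries titled MI-389, 66.3, 64.6 and 63.6 FPKM in those titled sunitinib, and 73.7, 73.0 and 79.1 FPKM in DMSO. Its 3 groups were separate, MI-389-titled highest and sunitinib-titled lowest, but the rise against DMSO in the libraries titled MI-389 was only 1.16-fold (0.21 ± 0.050 SE; limma, adjusted p = 0.00579).

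SLC38A2, a member known to be induced through an ATF4 site in amino acid shortage, had 113, 109 and 114 FPKM in the libraries titled MI-389, 112, 97.5 and 102 FPKM in those titled sunitinib, and 109, 115 and 124 FPKM in DMSO. All 3 groups overlapped. The log2 difference between MI-389-titled and DMSO libraries was −0.05 (95% interval −0.19 to 0.10; limma, adjusted p = 0.573), so any rise above 0.10 on that scale lay outside the interval. The sign was not fixed: quantile normalization gave 0.035, cyclic loess 0.083 and leaving out DMSO replicate 3 gave 0.0024, and with median centring the difference was −0.12 and passed (adjusted p = 0.0232). As a share of the summed FPKM of the 10 transporters, SLC38A2 was 6.76% in the libraries titled MI-389, 16.3% in those titled sunitinib and 17.1% in DMSO.

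These changes reordered the transcripts by level. In the libraries titled MI-389, SLC3A2 was followed by SLC1A5 and SLC7A5, which overlapped, and then by SLC38A2, SLC38A1, SLC7A1 and SLC1A4, the last 2 overlapping, with SLC7A11, SLC7A6 and SLC6A9 at the low end. The order in the libraries titled sunitinib was SLC3A2, SLC38A2, SLC7A5, SLC1A5, SLC38A1, SLC1A4, SLC7A6, SLC7A1, SLC7A11 and SLC6A9, where only SLC1A4 and SLC7A6 overlapped as neighbours. In DMSO, SLC38A2 was second to SLC3A2, SLC1A5 overlapped with SLC7A5 and SLC7A5 with SLC38A1, and SLC7A6, SLC7A1 and SLC1A4 overlapped as neighbours at 40.6 to 43.9 FPKM on average. Summed FPKM of the 10 genes was 1656 ± 45.5 in the libraries titled MI-389, 638 ± 10.0 in those titled sunitinib and 676 ± 55.4 in DMSO (SD, n = 3 each). The sum was 2.45 times that of DMSO in the libraries titled MI-389 (exact permutation p = 0.1, two-sided, 0.15 adjusted over 3 pairs).

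In the libraries titled sunitinib the transporters moved little against DMSO, and not in a single direction. SLC7A11 and SLC6A9 rose, SLC7A1, SLC1A5 and SLC38A1 fell, and the other 5 did not pass the test; over all genes 19.3% were called, 2.37% higher and 16.9% lower. For 6 of the 10 the sunitinib-titled and DMSO libraries had no overlap, against 35.2% of all genes (5.89% higher and 29.3% lower). The median difference was −0.09 over the transporters and −0.10 over all genes on the log2(FPKM + 1) scale, and that shift of all genes bears on every value here. With each library centred on its median, 4 transporters rose and 3 fell, and 40.5% of the calls over all genes were higher, against 12.3% as deposited (46.1% after quantile normalization and 48.6% after cyclic loess). The comparison uses the same DMSO libraries as the preceding one.

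SLC7A11 averaged 3.89 ± 0.288 FPKM in the libraries titled sunitinib, against 2.50 ± 0.299 in DMSO (SD, n = 3), 1.56-fold higher with a log2 difference of 0.49 (limma, adjusted p = 0.00499). SLC6A9 averaged 1.35 ± 0.190 against 0.621 ± 0.139 FPKM, a log2 difference of 0.54 (limma, adjusted p = 0.0149). It was among the tested genes only through the libraries titled MI-389. The difference was 0.50 without sunitinib-titled replicate 3 (adjusted p = 0.0584) and 0.18 with a pseudocount of 5 (0.0974), and passed in neither. Both are low transcripts, and both lay above DMSO in all 3 libraries.

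Of the falls, SLC7A1 was 1.30-fold lower at 33.5 ± 1.63 FPKM in the libraries titled sunitinib, against 43.5 ± 5.03 in DMSO (SD, n = 3; log2 difference −0.37; limma, adjusted p = 0.0148). SLC1A5 was 1.25-fold lower (−0.31, adjusted p = 0.0228) and SLC38A1 1.16-fold lower (−0.21, adjusted p = 0.0189). The differences stayed close to these values when a sunitinib-titled library was left out, but the adjusted p did not stay under 0.05. Without replicate 2 the differences were −0.34 for SLC7A1, −0.33 for SLC1A5 and −0.21 for SLC38A1 (adjusted p = 0.0618, 0.0623 and 0.0736). Without replicate 3 they were −0.35, −0.33 and −0.20 (adjusted p = 0.0568, 0.0655 and 0.0845). SLC1A5 also missed without sunitinib-titled replicate 1 (−0.29, adjusted p = 0.0734), without DMSO replicate 2 (−0.29, 0.0715) and without DMSO replicate 3 (−0.25, 0.0625).

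Among the others, SLC3A2 averaged 184 ± 4.47 FPKM in the libraries titled sunitinib, against 170.0 ± 13.3 in DMSO (SD, n = 3), a log2 difference of 0.12 (95% interval −0.02 to 0.25; limma, adjusted p = 0.205). It passed with median centring (0.20, adjusted p = 0.00551), quantile normalization (0.23) and cyclic loess (0.26). SLC7A5 differed by 0.08 (95% interval −0.10 to 0.26; limma, adjusted p = 0.527), passed with the same 3 scalings at 0.16, 0.20 and 0.21, and had a sign that turned to −0.018 without DMSO replicate 1. SLC1A4 differed by −0.02 (95% interval −0.15 to 0.10; limma, adjusted p = 0.798) and was above 0 with those scalings (0.063, 0.077 and 0.086). SLC7A6 was lower by −0.19 (limma, adjusted p = 0.103) and SLC38A2 by −0.15 (0.135); both passed without DMSO replicate 1, at adjusted p of 0.0241 and 0.0403.

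**Figure D3:**
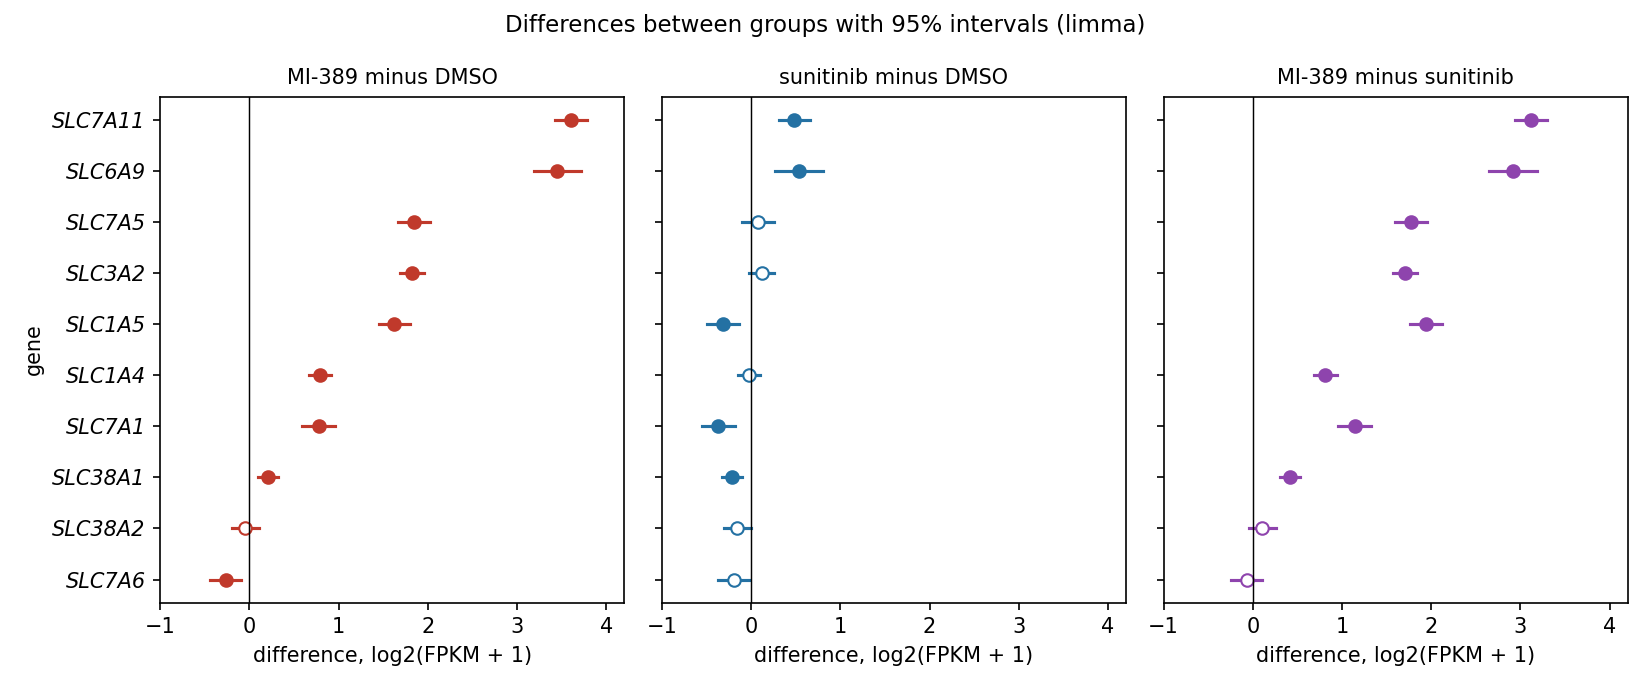
Differences between groups on the log2(FPKM + 1) scale with 95% intervals from limma, 1 panel per comparison and 1 row per gene; filled points passed an adjusted p of 0.05. The left and right panels look alike, with SLC7A11 and SLC6A9 near 3 or above, while the middle panel holds no difference larger than 0.54.

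Set directly against each other, the libraries titled MI-389 were higher than those titled sunitinib for 8 transporters and lower for none. Over all genes, 56.3% were called, 36% higher and 20.3% lower. SLC6A9, one of the 8 transporters, had passed the filter through the libraries titled MI-389 alone. These groups did not overlap for the same 8 genes, against 69.4% of all genes. The split of calls over all genes, 63.9% higher as deposited, was 40.3% with median centring, 46.1% after quantile normalization and 50.2% after cyclic loess. SLC7A11 was 10.6-fold and SLC6A9 12.4-fold higher (log2 differences 3.12 and 2.92; limma, adjusted p = 8.87e-09 and 1.47e-07). SLC1A5, 3.88-fold higher, and SLC7A1, 2.24-fold higher, differed more here than against DMSO, since the sunitinib-titled libraries lay below DMSO for both. SLC38A1 was 1.34-fold higher (adjusted p = 8.56e-05). SLC38A2 differed by 0.11 (95% interval −0.04 to 0.26; limma, adjusted p = 0.198), with −0.058 under median centring, and SLC7A6 by −0.07 (95% interval −0.24 to 0.10; adjusted p = 0.457). The SLC7A6 difference passed at −0.24, −0.25 and −0.21 with the 3 scalings named above.

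In the DMSO and MI-389-titled groups the transporters tended to be high or low together, by amounts near those of all tested genes. DMSO replicate 3 was the highest DMSO library for 9 of the 10 genes and DMSO replicate 1 the lowest for 7. Over all tested genes these libraries deviated from the group mean by a median of 0.10 and −0.08 on the log2 scale. The medians over the transporters were 0.10 and −0.11. MI-389-titled replicate 2 was the lowest of its group for all 10, with a median deviation of −0.05 over all genes and −0.05 over the transporters. The sunitinib-titled libraries showed no such order: they were the highest of their group for 4, 3 and 3 genes and the lowest for 2, 4 and 4.

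Lists of other transporters were counted in the same way. The lists were chosen with earlier results of these data known. Of 36 further plasma membrane amino acid transporters, 11 were tested; in the libraries titled MI-389, 3 rose (27.3%) and 4 fell against DMSO, near the 28.5% and 28.3% over all genes, and the median of their log2 differences was −0.001. SLC43A1, or LAT3, a carrier of leucine and other large neutral amino acids that works without SLC3A2, had 9.82, 8.04 and 9.09 FPKM in the libraries titled MI-389, against 1.40, 1.97 and 1.06 FPKM in DMSO. Those groups were far apart, a 6.08-fold difference (limma, adjusted p = 4.48e-06). SLC7A3, a cationic amino acid carrier, rose to 9.56 FPKM, against 5.87 in DMSO, while SLC7A2, a carrier of the same family, fell to 1.38 FPKM, against 2.94. The third rise was SLC1A7, a glutamate transporter, at 1.85-fold. SLC6A6, the taurine transporter, fell to 16.4 FPKM, against 30.3, SLC38A5, a glutamine and serine carrier, to 15.7, against 22.3, and SLC38A10 was 1.27-fold lower. None of the 11 rose in the libraries titled sunitinib and 3 fell, SLC7A2, SLC38A5 and SLC38A6, where 2.37% of all genes rose and 16.9% fell.

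Of 9 transporters of the lysosome, 6 were tested, and 2 rose (33.3%) in the libraries titled MI-389 against DMSO, near the 28.5% over all genes. SLC38A9, an arginine-regulated transporter that signals to mTORC1, had 31.1, 30.3 and 34.1 FPKM, against 18.5, 19.6 and 20.8 FPKM in DMSO, without overlap (limma, adjusted p = 4.11e-05). SLC38A7, a glutamine exporter of the lysosome, was 1.17-fold higher. Of 11 tested mitochondrial amino acid carriers, 6 fell and 1 rose, beside 28.3% and 28.5% over all genes, with a median log2 difference of −0.20. No test compared this list with other genes. SLC25A29, a carrier of basic amino acids, fell to 30.8 FPKM in the libraries titled MI-389, against 54.6 in DMSO, SLC25A22, a glutamate carrier, to 21.5, against 36.7, and SFXN1, which imports serine, to 78.3, against 117. SLC25A26, the S-adenosylmethionine carrier, was the rise, at 1.17-fold. SLC25A22 and SFXN1 also fell in the libraries titled sunitinib, where no mitochondrial carrier rose, beside 16.9% lower and 2.37% higher over all genes.

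A list for the transport of glucose, lactate, nucleosides and vitamins had 12 tested genes. In the libraries titled MI-389, 6 of them fell and 1 rose against DMSO, beside 28.3% and 28.5% over all genes. BSG, among those that fell, is not itself a carrier. SLC2A3, a glucose transporter, rose 3.01-fold, while SLC16A1, a lactate carrier, fell to 57.1 FPKM, against 110.0 in DMSO. Over all 161 other tested genes with an SLC symbol, 30 rose (18.6%) and 64 fell; the median log2 difference was −0.11. Of these, 3 rose and 39 fell in the libraries titled sunitinib, beside 2.37% and 16.9% over all genes.

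**Figure D4:**
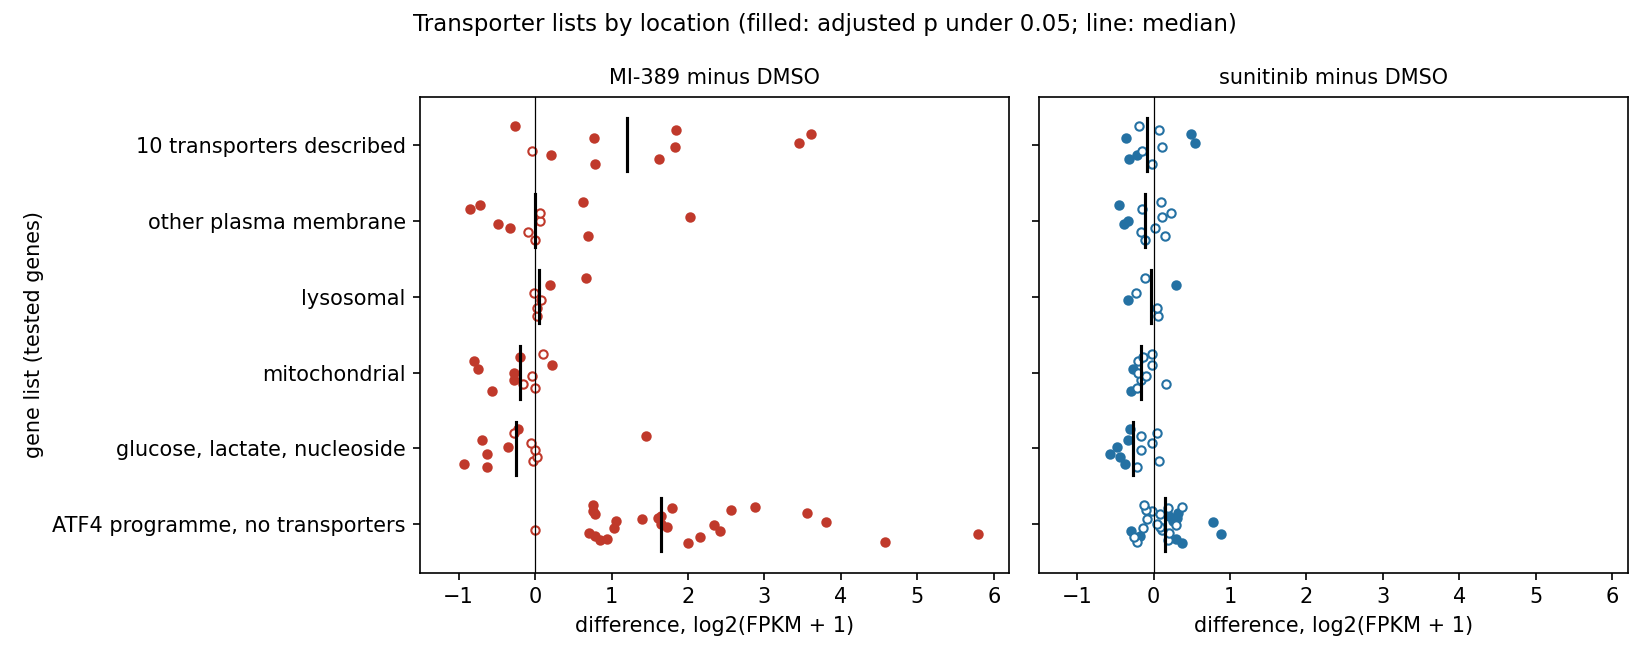
Log2(FPKM + 1) differences from DMSO of every tested gene in 6 lists, for libraries titled MI-389 (left) and titled sunitinib (right); filled points passed an adjusted p of 0.05 and black lines are list medians. On the left the 10 transporters had a median of 1.21 and the ATF4 list without transporters 1.65. Both lie to the right of the other transporter lists, whose medians run from −0.25 to 0.05. The 10 transporters and the lists were chosen with earlier results of these data known.

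The ATF4 list without transporters had 25 of 26 tested genes higher and none lower in the libraries titled MI-389, beside 28.5% and 28.3% over all genes. The list was drawn up with the direction of that pathway in these data known. ATF4 itself averaged 1202 ± 22.3 FPKM in the libraries titled MI-389, 759 ± 17.3 in those titled sunitinib and 671 ± 79.3 in DMSO (SD, n = 3 each). CHAC1, a glutathione-degrading enzyme, had 158, 143 and 148 FPKM in the libraries titled MI-389, 3.86, 4.21 and 3.98 FPKM in those titled sunitinib, and 1.23, 1.38 and 2.82 FPKM in DMSO. Of the list, 8 genes rose and 2 fell in the libraries titled sunitinib, DDIT3 and CEBPG being lower. The shares over all genes there were 2.37% and 16.9%. NFE2L2, which encodes NRF2, another known regulator of SLC7A11, rose 1.79-fold in the libraries titled MI-389 and fell 1.19-fold in those titled sunitinib.

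The list of cystine and glutathione metabolism had 15 tested genes. In the libraries titled MI-389, 3 rose (20%) and 8 fell against DMSO, beside 28.5% and 28.3% over all genes. The 3 that rose were CHAC1 (82.8-fold), CBS (1.93-fold) and CTH (1.77-fold), which are also counted in the ATF4 list. GCLC and GCLM, the subunits of the enzyme that starts glutathione synthesis, fell to 35.3 and 20.8 FPKM, against 44.0 and 25.2 in DMSO, and GSR, glutathione reductase, to 77.6, against 100.5. CD44, a surface protein reported to stabilise SLC7A11, fell to 13.5 FPKM, against 18.8. Of 38 genes of the mTORC1 pathway and its amino acid sensing, 11 rose (28.9%) and 9 fell, near the share over all genes. SESN2, a leucine-binding inhibitor, had 85.4, 79.0 and 82.5 FPKM in the libraries titled MI-389, against 6.32, 5.41 and 6.47 FPKM in DMSO.

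Genes whose profile lay nearest to each transporter were sought among 10109 others with a mean of at least 5 FPKM, by the root mean square distance of log2 differences from the DMSO mean over the 6 treated libraries. The nearest to SLC7A11 were SESN2 (0.139) and TREML2 (0.215), and the same 2 genes were nearest to SLC6A9 (0.197 and 0.148). TUBE1 was nearest to both SLC3A2 (0.060) and SLC7A5 (0.066), with TRIB3, a pseudokinase induced by ATF4, second for SLC3A2 (0.068). PMAIP1, which encodes the pro-apoptotic protein NOXA, was nearest to SLC1A5 (0.075), YRDC to SLC7A1 (0.032) and YY1AP1 to SLC1A4 (0.022). ANAPC1, ZDHHC20 and PKD1 were nearest to SLC38A1, SLC38A2 and SLC7A6, at 0.023, 0.028 and 0.023.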

How the data were processed

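Gene-level FPKM values were deposited by the authors for 9 libraries; the tools HISAT and Cufflinks 2.0.0 and the build hg19 are named, per the submitters' processing notes. The gene annotation they used is not given in the sources used here, nor is any scaling of libraries. Spike-in RNA was added by cell number and libraries were made from polyA RNA with the SMARTer v4 kit, per the labels' protocols. Of 92 spike-in rows, the 16 that averaged 10 FPKM or more had median log2 differences from DMSO of −0.030 (libraries titled MI-389) and −0.012 (titled sunitinib). Rows without signal were near 0.1 FPKM.

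Tests were made with limma 3.58.1 in R 4.3.3 on log2(FPKM + 1), with 9 libraries in 3 groups, a variance trend and Benjamini-Hochberg adjustment over 12301 genes, and checked on simulated data. Sums and ratios over a library were compared by exact permutation. The members and gene lists were chosen with earlier results of these data known. Named genes were the 10 members and, for each list and comparison, up to 4 of its called genes, ranked by adjusted p. Selected reference genes, neighbouring or copied genes and the 2 nearest profiles of each member were also named. Outside these rules lie SLC7A3, GCLC, GCLM, CTH, CEBPG, SGK1, CCDC24, CD4, CD79A, CD79B, MS4A1, PAX5 and SLC30A1. They were chosen after their values were seen. Promoter windows came from RefSeq GRCh38.p14 and overlapping genes from GENCODE 29; neither set coordinates for the expression values. Figures were drawn with matplotlib 3.10.9.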

Additional observations from a re-analysis of the deposited data

How the results depend on the processing

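The member values, 10 genes in 3 comparisons, were recomputed under 22 settings, of which 9 leave out a library each; 610 of 660 kept direction and side of the threshold, 29 lost the call, 12 gained it and 9 changed sign. In the libraries titled MI-389 against DMSO and against those titled sunitinib, SLC7A11, SLC7A5, SLC3A2, SLC1A5 and SLC6A9 passed under all 22. With the settings used above, the counts of members called were 9, 5 and 8 in the 3 comparisons. The first count was 10 with median centring and 8 without MI-389-titled replicate 2. The third was 9 with median centring, quantile normalization or cyclic loess, and 6 with a difference of at least 1. Requiring a difference of at least 1 left 5 members in the first comparison with DMSO and 0 in the sunitinib-titled one, and 423, 18 and 417 genes over all in the 3 comparisons, against 6979, 2370 and 6927. For libraries titled sunitinib against DMSO, a fit of only the 6 libraries called 3 members and 1225 genes, no filter gave 1423 genes, quantile normalization 3677 and cyclic loess 3814; leaving out single libraries gave 1 to 7 members and 948 to 4250 genes, the counts of genes being 4250 when DMSO replicate 1 was dropped, 1573 for DMSO replicate 3, and 1542, 948 and 1020 for sunitinib-titled replicates 1, 2 and 3 (with 2 members left for replicate 2 and 1 for replicate 3). Signs changed for SLC38A2 in libraries titled MI-389 against DMSO (0.035 after quantile normalization, 0.083 after cyclic loess; −0.088 to 0.0024 with a library left out) and against those titled sunitinib (−0.058 with median centring). They also changed in libraries titled sunitinib against DMSO for SLC1A4 (0.063 with median centring, 0.077 after quantile normalization, 0.086 after cyclic loess; −0.072 to 0.0089 with a library left out) and SLC7A5 (−0.018 to 0.15 with a library left out). The summed FPKM ratio to DMSO was 2.70 for libraries titled MI-389 and 1.03 for those titled sunitinib after quantile normalization, against 2.45 and 0.944. The ratio of light chains to SLC3A2, relative to DMSO, was 0.748 after quantile normalization and 0.468 without SLC7A5 in libraries titled MI-389, against 0.821, and 0.837 without SLC7A5 in those titled sunitinib, against 0.924; between the treated groups it was 0.809 and 0.559, against 0.889. The causes of these shifts were not tested. Same-numbered replicates deviated from their group means with correlations of −0.042 to 0.112, and only between the treated groups did each library correlate best with its own number, so numbers were not taken to pair libraries. A replicate block called 9, 5 and 8 members and 6816, 1941 and 6740 genes in the 3 comparisons and changed no member's call. The DMSO values of SLC6A9 lie near the floor, which limits the precision of its fold.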

Other observations

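A further list held regulators of transporter trafficking and their relatives, not only those that act on amino acid carriers. In the libraries titled MI-389, 6 of its 12 tested genes rose (50%) and 3 fell against DMSO, beside 28.5% and 28.3% over all genes. TXNIP, an arrestin-domain protein that promotes uptake of glucose transporters into the cell, had 490, 456 and 507 FPKM in the libraries titled MI-389, against 53.6, 58.0 and 61.2 FPKM in DMSO. ARRDC4, a relative, had 80.2, 75.4 and 87.2 FPKM, against 7.01, 5.70 and 6.84 FPKM, and ARRDC3, another, averaged 96.6 against 18.1 FPKM (limma, adjusted p = 7.41e-09 and 3.44e-09). SGK1, a kinase that opposes ubiquitination of channels and transporters, averaged 3.68 against 1.07 FPKM. LAPTM4B, a lysosomal protein known to recruit SLC7A5 and SLC3A2 to lysosomes, fell to 29.6 FPKM, against 43.8, and ARRDC1 to 18.0, against 26.3. Of this list, ARRDC3 alone rose and 4 genes fell in the libraries titled sunitinib, beside 2.37% and 16.9% over all genes.

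Other SLC genes were ranked if they were called, averaged 5 FPKM or more in either group and did not overlap between groups. Among these, the largest rise against DMSO in the libraries titled MI-389 was that of SLC30A1, a zinc exporter and not an amino acid carrier. SLC30A1, chosen after its value was seen, averaged 24.4 ± 1.11 FPKM, against 2.26 ± 0.661 in DMSO (SD, n = 3). Its adjusted p was 1.70e-07 (limma).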
